A study of Homo sapiens with 12 samples.

Results

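The genes described here are 7 genes of receptor-mediated endocytosis in the proximal tubule, chosen by name: LRP2, CUBN, AMN, DAB2, LRPAP1, OCRL and LRP1. All 7 were found among the 58735 genes of the count table. They were read in HK-2 cells, an immortalized line of human proximal tubular epithelial cells, whose RNA was sequenced in 12 samples of 4 groups with 3 replicates each. The control group received water. The iohexol group was treated with 75 mg I/mL of iohexol, an iodinated contrast medium. Cisplatin, a platinum drug against tumors, was given at 5 μM, and vancomycin, a glycopeptide antibiotic, at 4 mM. Each drug was applied for 48 h. All groups are cultures of the same line, so that none holds the blood vessels, immune cells or urine flow of a kidney, and the labels do not say whether replicates came from separate cultures. The p-values below therefore measure the spread between these samples, which may be technical.

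The proximal tubule takes up filtered proteins, vitamins and hormones from the primary urine through large receptors on its apical membrane. Megalin, encoded by LRP2, and cubilin, encoded by CUBN, bind these ligands, and amnionless, encoded by AMN, carries cubilin to the cell surface. The adaptor DAB2 links the tail of megalin to clathrin, the phosphatase OCRL acts on inositol lipids of the endosome and is lost in Lowe syndrome, and the chaperone RAP, encoded by LRPAP1, keeps newly made receptors of the LDL receptor family from binding ligands too early. LRP1 is a scavenger receptor of the same family as megalin that is made by many cell types.

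Among the 7 genes, LRP2 was close to unread, CUBN was weakly read, and the others were read in every sample. LRP1 was 2.88-fold lower with cisplatin and 1.89-fold higher with vancomycin than in the control group, and changed by less than its spread with iohexol. AMN was 2.90-fold higher with iohexol and 2.17-fold higher with cisplatin, and 1.74-fold lower with vancomycin. CUBN was 2.80-fold higher with iohexol, from a low level. DAB2 was higher with cisplatin and with vancomycin.

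The genes lie on different chromosomes and are unequal in size. On GRCh38, by the positions of the table, LRP2 (ENSG00000081479) lies on chromosome 2 from 169127109 to 169362685, and its principal transcript in GENCODE release 29 has 79 exons in 15808 bases. CUBN (ENSG00000107611) lies on chromosome 10 from 16823966 to 17129817, with 67 exons in 11933 bases, and LRP1 (ENSG00000123384) on chromosome 12 from 57128493 to 57213351, with 89 exons in 14897 bases. The 3 receptors are thus encoded by very long messages. AMN (ENSG00000166126) is the smallest, on chromosome 14 from 102922656 to 102933596, with 12 exons in 1907 bases. DAB2 (ENSG00000153071) lies on chromosome 5 from 39371675 to 39462300, LRPAP1 (ENSG00000163956) on chromosome 4 from 3503597 to 3532559, and OCRL (ENSG00000122126) on chromosome X from 129539849 to 129592561.

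The sequence before the RefSeq start of 4 of these genes is shown because they are the receptor pair of the tubule, its carrier and the receptor with the most reads. The 250 bases upstream of the RefSeq start (GRCh38.p14) are chr2:169362535-169362784 on the minus strand for LRP2, chr10:17129812-17130061 on the minus strand for CUBN, chr14:102922413-102922662 on the plus strand for AMN and chr12:57128233-57128482 on the plus strand for LRP1. Each is written 5′ to 3′ on the strand of its gene, with capitals for GGGCGG or its reverse complement CCGCCC, the core of a GC box.
LRP2: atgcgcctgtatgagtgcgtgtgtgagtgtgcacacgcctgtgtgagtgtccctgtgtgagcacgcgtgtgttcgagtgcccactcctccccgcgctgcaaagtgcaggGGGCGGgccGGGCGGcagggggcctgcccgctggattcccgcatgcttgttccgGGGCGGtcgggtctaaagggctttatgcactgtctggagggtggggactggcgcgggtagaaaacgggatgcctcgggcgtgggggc
CUBN: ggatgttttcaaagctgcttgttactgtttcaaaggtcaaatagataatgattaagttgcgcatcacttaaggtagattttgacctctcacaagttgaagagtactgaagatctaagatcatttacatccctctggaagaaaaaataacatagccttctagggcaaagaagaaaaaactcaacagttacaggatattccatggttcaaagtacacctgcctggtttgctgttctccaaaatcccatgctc
AMN: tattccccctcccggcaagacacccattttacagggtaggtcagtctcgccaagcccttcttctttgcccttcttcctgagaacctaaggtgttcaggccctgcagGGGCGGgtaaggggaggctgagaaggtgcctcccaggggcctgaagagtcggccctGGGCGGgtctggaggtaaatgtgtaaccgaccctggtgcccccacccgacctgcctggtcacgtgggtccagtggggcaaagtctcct
LRP1: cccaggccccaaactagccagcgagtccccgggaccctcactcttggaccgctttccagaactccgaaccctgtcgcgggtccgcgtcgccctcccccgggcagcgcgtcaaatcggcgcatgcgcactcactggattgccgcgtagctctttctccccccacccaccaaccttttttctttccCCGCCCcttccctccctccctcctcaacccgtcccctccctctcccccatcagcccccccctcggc
The LRP2 window held the GC box core 3 times, that of AMN 2 times and that of LRP1 1 time, and the CUBN window did not hold it. The RefSeq start of LRP2 differs from that of the count table, which places the start of the gene at 169362685, inside this window. All 3 cores of the LRP2 window thus lie within the gene by the positions of the table. Of all 35114 RefSeq windows of this length 42.6% held it at least once. The TATA box, TATAAA, was searched on both strands as well and was in none of the 4 windows, where 10.7% of all windows held it. It cannot overlap the GC box core, which holds neither A nor T. The GC content was 66.8% for LRP2, 38.0% for CUBN, 61.6% for AMN and 67.6% for LRP1, against a median of 58.0%, and 9.51% of all windows had a lower GC content than that of CUBN. The letters are a description of the windows and say nothing of the binding of a factor.

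Total counts per sample were between 14057282 and 18177109. Levels are given as CPM, the counts of a gene scaled to the total of its sample and to its TMM factor, and a value after ± is the SD over the replicates of a group (n = 3). The TMM factors were lowest for vancomycin (0.885 to 0.897), then control (0.961 to 0.976), iohexol (1.02 to 1.04) and cisplatin (1.12 to 1.13). The floor, 3 counts in a sample, was equal to 0.165 to 0.213 CPM before TMM scaling. It reflects counting error alone. A CPM value of a culture cannot tell a change in every cell from a change in the share of cells that make the RNA. The label of the line was compared with 20 markers of the proximal tubule. Of these, SLC22A6, SLC22A8, LRP2 and HNF4A had at most 3 counts in all 12 samples, while DPP4, GGT1, SLC4A4 and MME were the most abundant. Summed over the 20 markers, the controls had 548 to 553 CPM and the iohexol samples 576 to 604 CPM. The cisplatin samples had 289.9 to 305 CPM and the vancomycin samples 1077 to 1145 CPM. Of 10 epithelial markers, none was at or under the floor in all samples, with summed levels of 2761 to 2835, 2034 to 2234, 1998 to 2058 and 3068 to 3172 CPM in the same order. CDH1 was however close to the floor, with 0 to 8 counts. The sums were carried mainly by KRT8, VIM and PAX8, with medians of 656, 494 and 393 CPM. VIM, which encodes vimentin, is a gene of mesenchymal cells as well, so these sums are not specific to epithelium. The markers of other cells were at or under 3 counts in all samples for 4 of 7 genes of the distal nephron, 3 of 5 of endothelium, 1 of 6 of fibroblasts and 4 of 6 of leukocytes. Fibroblast markers, mainly LUM and COL1A1, summed to 213 to 243 CPM in the vancomycin samples, against 100.3 to 117 CPM in the other 9, and the part of these shifts in the results below was not tested.

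The apical receptor megalin had almost no reads. LRP2 had 0 counts in the 3 control samples, 0, 0 and 1 with iohexol, 0, 1 and 0 with cisplatin, and 3, 2 and 0 with vancomycin. No sample exceeded the floor of 3 counts, so that no fold change is given, and LRP2 did not pass the filter on low counts in any comparison. Counts of 0 in the control group allow a level of up to 0.181 to 0.211 CPM per sample. HNF4A, a transcription factor of the mature proximal tubule, was likewise at 0 to 3 counts in all 12 samples.

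Cubilin was read weakly in every sample. CUBN had 9, 15 and 8 counts in the control samples (0.707 ± 0.213 CPM), 30, 26 and 33 with iohexol (1.98 ± 0.283 CPM), 9, 7 and 11 with cisplatin (0.542 ± 0.109 CPM) and 14, 10 and 17 with vancomycin (0.866 ± 0.186 CPM). The 3 iohexol samples lay above all 9 others, and the other groups overlapped except that the vancomycin samples lay above the cisplatin samples. The log2 fold change with iohexol was 1.48 (standard error 0.34). CUBN passed the filter in this comparison through the iohexol samples, where its level was highest, so this change is given as a description and its test is not used as support. In a fit with no filter on low counts, where all genes were tested, the log2 fold change was 1.45 (standard error 0.39, adjusted p = 0.00372 by edgeR). With vancomycin the log2 fold change was 0.25, with a 95% interval from -0.67 to 1.17 and an adjusted p of 0.656 by edgeR. In the comparison with cisplatin CUBN did not pass the filter. A fit of all 12 samples gave a log2 fold change of -0.38 for it, with an interval from -1.25 to 0.49 (adjusted p = 0.462 by edgeR). Pseudogenes of cubilin share part of its sequence, so that some reads could have been counted elsewhere. Of the 31-base stretches of its transcripts, taken every 5 bases here and below, 6.95% also occur in another gene.

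Amnionless changed with all 3 drugs, and not in the same direction. AMN was at 4.35, 5.21 and 7.83 CPM in the control samples, from 60, 83 and 119 counts. With iohexol it was at 18.5, 18.7 and 12.8 CPM, with cisplatin at 11.8, 12.7 and 13.3 CPM, and with vancomycin at 3.00, 3.78 and 3.51 CPM. All iohexol and cisplatin samples lay above all control samples, and all vancomycin samples lay below them. Iohexol replicate 3 was the lowest of its group and fell within the range of the cisplatin samples. The log2 fold change was 1.54 with iohexol (standard error 0.22, adjusted p = 0.00048 in edgeR's quasi-likelihood test), 1.12 with cisplatin (standard error 0.17, adjusted p = 2.55e-05) and -0.80 with vancomycin (standard error 0.23, adjusted p = 0.00513). Without control replicate 3, the highest of the controls, the change with vancomycin was -0.53 and was no longer called (adjusted p = 0.0729 by edgeR).

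The last 1218 bases of the span of AMN run against the end of CDC42BPB on the other strand, and AL117209.1, annotated as an antisense RNA and with 5 to 20 counts, overlaps AMN by 23 bases on the same strand. The library kit does not mark the strand and the strand setting of the counting was not given, so reads of this stretch cannot be told apart, and 9.88% of the 31-base stretches of AMN transcripts also occur in CDC42BPB. CDC42BPB was at 209 ± 3.69 CPM in the control group and 185 ± 11.3 CPM with iohexol. Cisplatin samples had 109 ± 1.55 CPM and vancomycin samples 192 ± 26.0 CPM. It was thus lower with cisplatin, where AMN was higher (log2 fold change -0.94, adjusted p = 3.1e-10 by edgeR), and was not called with iohexol or vancomycin (adjusted p = 0.222 and 0.151 by edgeR).

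**Figure D1:**
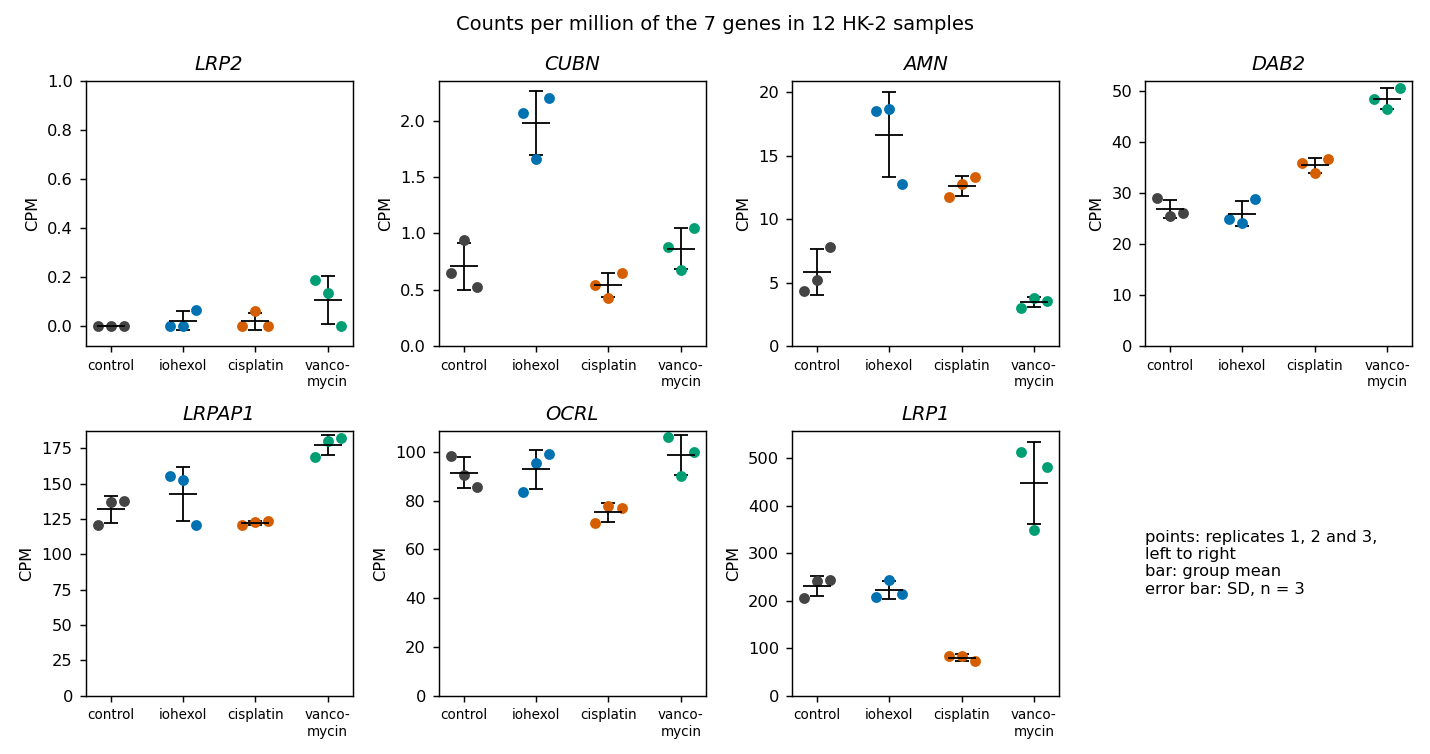
Level of the 7 genes in CPM (y axes, a separate scale for each gene) in the 3 samples of each group (x axes). Points are replicates and bars are the group mean with its SD (n = 3). LRP2 stays at or under 0.188 CPM, CUBN is highest in the 3 iohexol samples, AMN is high with iohexol and cisplatin, and LRP1 is lowest with cisplatin and highest with vancomycin.

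LRP1, the scavenger receptor of the family, was the member with the most reads. It was at 206, 242 and 244 CPM in the control samples and at 208, 245 and 215 CPM with iohexol. With cisplatin it was at 84.1, 84.6 and 72.1 CPM and with vancomycin at 514, 349.7 and 481 CPM. The iohexol samples overlapped the controls, all cisplatin samples lay below every other sample, and all vancomycin samples lay above every other sample. Vancomycin replicate 2 was the lowest of its group. The log2 fold change was -1.52 with cisplatin (standard error 0.08, adjusted p = 2.46e-11 in edgeR's quasi-likelihood test) and 0.92 with vancomycin (standard error 0.11, adjusted p = 2.66e-07). With iohexol it was -0.03, with a 95% interval from -0.25 to 0.18 (adjusted p = 0.844). Leaving out 1 sample at a time gave values from -1.60 to -1.45 with cisplatin and from 0.81 to 1.07 with vancomycin, and each of these was called.

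Long genes as a class were lower with both of these drugs. Of the 1648 genes of at least 10000 bases tested with cisplatin, 968 were lower and 219 higher at an adjusted p under 0.05, with a median log2 fold change of -0.35, against 0.01 over all 15876 genes tested. With vancomycin 750 of 1687 such genes were lower and 325 higher, with a median of -0.22, against -0.01 over all genes. The change of LRP1 with cisplatin was larger than the median of long genes, and its change with vancomycin had the opposite direction. The start of LRP1 overlaps that of STAT6 on the other strand over 3647 bases. STAT6, a transcription factor of interleukin signaling, moved in the same direction as LRP1, with log2 fold changes of -0.54 with cisplatin (adjusted p = 8.91e-06 by edgeR) and 0.64 with vancomycin (adjusted p = 4.02e-06 by edgeR). The part of gene length and of the overlap in the change of LRP1 was not tested. The transcripts of LRP1 share 1.42% of their 31-base stretches with other genes.

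The chaperone of these receptors was called against the control group with 1 of the 3 drugs. LRPAP1 was at 121, 137 and 137 CPM in the control samples, at 155, 152 and 120.4 CPM with iohexol, at 121, 123 and 124 CPM with cisplatin and at 169, 180.04 and 182 CPM with vancomycin. The vancomycin samples lay above all other samples, and the other 3 groups overlapped. LRPAP1 was higher with vancomycin by 0.38 on the log2 scale (standard error 0.09, adjusted p = 0.000581 in edgeR's quasi-likelihood test). With iohexol the change was 0.13 (95% interval -0.11 to 0.38, adjusted p = 0.435) and with cisplatin -0.11 (95% interval -0.24 to 0.03, adjusted p = 0.165). Both depended on single samples: without iohexol replicate 3 the first was 0.24 and called (adjusted p = 0.0371), and without control replicate 1 the second was -0.17 and called (adjusted p = 0.00295), all by edgeR. With library sizes in place of the TMM factors the sign of the second turned, to 0.11.

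A ratio of 2 genes within a sample does not depend on the scaling between samples. LRP1 had 1.75 ± 0.0357 reads for each read of LRPAP1 in the control group, 1.58 ± 0.223 with iohexol, 0.656 ± 0.0627 with cisplatin and 2.54 ± 0.554 with vancomycin. AMN had 0.0437 ± 0.0115 reads for each read of LRPAP1 in the control group, 0.116 ± 0.00878 with iohexol, 0.103 ± 0.00545 with cisplatin and 0.0193 ± 0.00163 with vancomycin. For both genes the samples with cisplatin and with vancomycin did not overlap the controls. The DAB2 ratio to LRPAP1 was 0.205 ± 0.0296 in the control group, 0.290 ± 0.0125 with cisplatin and 0.274 ± 0.0147 with vancomycin, and neither drug overlapped the controls. That of OCRL was 0.698 ± 0.101, 0.614 ± 0.0260 and 0.558 ± 0.0645 in the same order, and both drugs overlapped the controls. With iohexol both ratios overlapped the controls. LRPAP1 was itself higher with vancomycin, which lowers each ratio there. All these ratios were chosen after the values were seen, and are given without a test.

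The adaptor DAB2 was higher with 2 of the 3 drugs. It was at 28.96, 25.6 and 26.1 CPM in the control samples, at 24.9, 24.2 and 28.8 CPM with iohexol, at 36.0, 33.9 and 36.7 CPM with cisplatin and at 48.5, 46.5 and 50.6 CPM with vancomycin. The control and iohexol samples overlapped, all cisplatin samples lay above both, and all vancomycin samples lay above the cisplatin samples. The log2 fold change of DAB2 was 0.40 with cisplatin (standard error 0.09, adjusted p = 0.000983 in edgeR's quasi-likelihood test), 0.81 with vancomycin (standard error 0.11, adjusted p = 6.94e-07) and -0.03 with iohexol (95% interval -0.29 to 0.22, adjusted p = 0.877). C9, which overlaps DAB2 on the same strand, had at most 9 counts.

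OCRL was at 98.2, 90.4 and 85.6 CPM in the control samples, at 83.7, 95.4 and 99.3 CPM with iohexol, at 70.7, 77.9 and 77.1 CPM with cisplatin and at 106, 89.95 and 99.9 CPM with vancomycin. Only the cisplatin samples were apart from the controls, all of them below. The log2 fold change with cisplatin was -0.28 (standard error 0.07, adjusted p = 0.00315 in edgeR's quasi-likelihood test). With library sizes in place of the TMM factors it was -0.06 and was not called (adjusted p = 0.458). With iohexol it was 0.04 (95% interval -0.18 to 0.26) and with vancomycin 0.07 (95% interval -0.13 to 0.27), with adjusted p of 0.812 and 0.553 by edgeR. None of the 31-base stretches taken every 5 bases from OCRL transcripts occurs in another gene, and the stretches between were not searched.

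Counted over the members without CUBN, whose entry depended on the iohexol samples, 1 of the 5 tested with iohexol was higher (AMN) and 0 lower, where 11.2% of all genes tested were higher and 9.77% lower at an adjusted p under 0.05 in edgeR's quasi-likelihood test. At an unadjusted p under 0.05 the number of lower members was also 0, and DESeq2 and limma-voom each gave 0. With cisplatin 2 of the 5 tested were higher (AMN and DAB2) and 2 lower (LRP1 and OCRL), with 29.2% and 30.6% of all genes. With vancomycin 3 of the 6 tested were higher (LRP1, DAB2 and LRPAP1) and 1 lower (AMN), with 29.0% and 28.8% of all genes. The shares with cisplatin and vancomycin are read against a background in which 59.8% and 57.9% of all genes were called. DEGs, which also needed a log2 fold change above 1 or below -1, were AMN with iohexol (CUBN not counted), AMN and LRP1 with cisplatin, and 0 members with vancomycin, where 5.28%, 16.3% and 18.5% of all genes tested were DEGs. Without control replicate 1 AMN was at 0.95 with cisplatin and was then not a DEG.

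**Figure D2:**
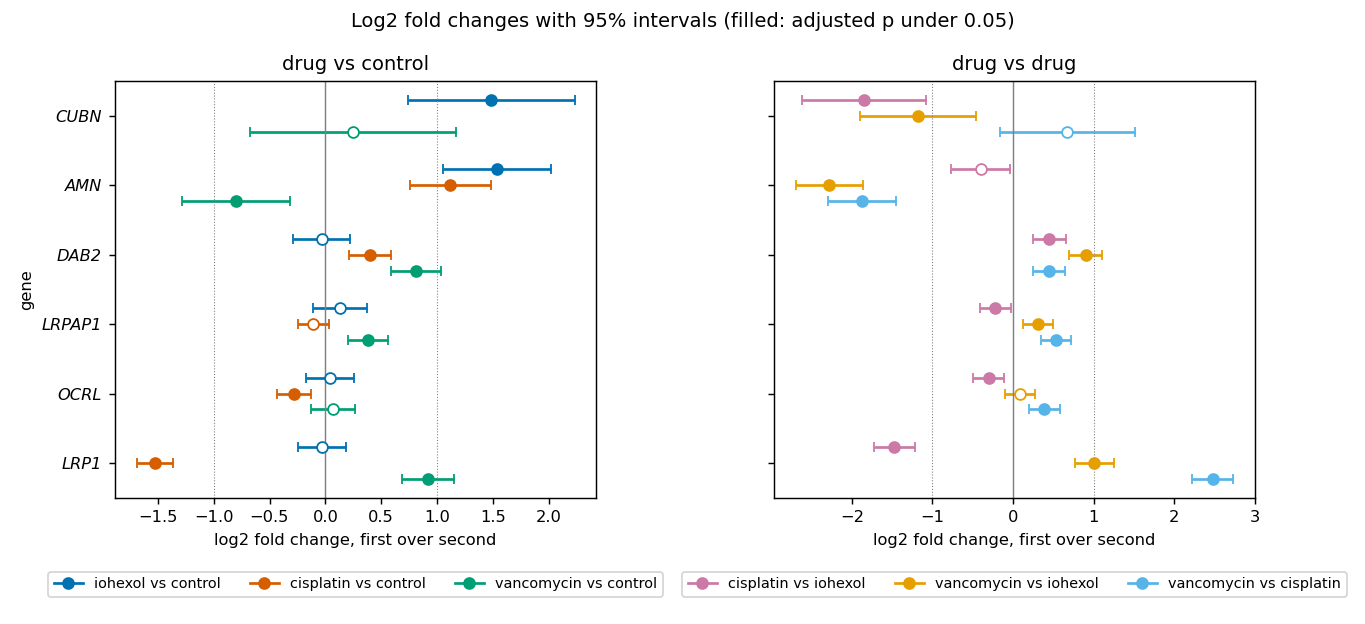
Log2 fold changes (x axes) of the 6 genes with reads (y axis) for each drug against the control group (left) and between drugs (right), with 95% intervals from edgeR. Filled points have an adjusted p under 0.05 and dotted lines mark log2 fold changes of -1 and 1. LRP1 lies at -1.52 with cisplatin and at 0.92 with vancomycin, and AMN lies on both sides of 0. The point of CUBN with iohexol rests on a filter passed through the iohexol samples. CUBN has no value for cisplatin against control, where it did not pass the filter.

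The drugs were also compared directly, in a fit of all 12 samples. The 3 doses have different units and were those of the study, so a difference between drugs is one between these treatments. Between vancomycin and cisplatin, LRP1 differed by 2.48 on the log2 scale (standard error 0.12, adjusted p = 1.06e-12 in edgeR's quasi-likelihood test) and AMN by -1.88 (standard error 0.20, adjusted p = 9.4e-08). DAB2, LRPAP1 and OCRL were higher with vancomycin than with cisplatin, by 0.45, 0.53 and 0.39, and with library sizes in place of the TMM factors none of these 3 was called. That scaling moved the median of all genes from 0.03 to -0.30. CUBN was not called (log2 fold change 0.67, 95% interval -0.17 to 1.51, adjusted p = 0.15 by edgeR). In all, 4 of 6 members were higher and 1 lower with vancomycin, where 34.7% of all genes tested were higher and 30.0% lower, 64.7% together. LRP1 and AMN were the 2 DEGs, with 28.5% of all genes.

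Between vancomycin and iohexol, 3 of 6 members were higher and 2 lower with vancomycin, where 29.0% of all genes tested were higher and 27.6% lower, 56.6% together. LRP1, AMN and CUBN were the 3 DEGs, with 20.1% of all genes, and LRP1 was not past 2-fold in 10 of its 20 alternatives. AMN was 4.85-fold lower with vancomycin (log2 fold change -2.28) and CUBN 2.26-fold lower (log2 fold change -1.18). LRP1 was higher with vancomycin by 1.01, DAB2 by 0.90 and LRPAP1 by 0.31 on the log2 scale. With library sizes LRPAP1 was at 0.10 and was not called (adjusted p = 0.342 by edgeR). OCRL was not called (log2 fold change 0.09, 95% interval -0.10 to 0.28). Between cisplatin and iohexol, 1 of 6 members was higher and 4 were lower with cisplatin, where 26.0% of all genes tested were higher and 27.9% lower, 54.0% together. LRP1 and CUBN were the 2 DEGs, with 17.5% of all genes. LRP1 and CUBN were lower with cisplatin, with log2 fold changes of -1.47 and -1.85 (adjusted p = 2.87e-09 and 0.000272 by edgeR). OCRL was lower by a log2 fold change of -0.30 and DAB2 higher by 0.45. OCRL was not called with library sizes (-0.17, adjusted p = 0.106 by edgeR) or without cisplatin replicate 1 (-0.26, adjusted p = 0.0509 by edgeR). LRPAP1, at -0.22, passed narrowly (adjusted p = 0.0469 by edgeR), and 14 of its 20 alternatives lost the call. AMN, at -0.40, was just outside it (95% interval -0.76 to -0.04, adjusted p = 0.059 by edgeR). Without cisplatin replicate 1 the number of members called fell to 3, with LRPAP1 and OCRL lost.

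To compare levels between genes, CPM was divided by the length of the gene in kb as the table gives it. In the control group OCRL was at 15.1 ± 1.05 CPM per kb, LRP1 at 11.1 ± 1.01 CPM per kb, LRPAP1 at 11.0 ± 0.793 CPM per kb, DAB2 at 3.48 ± 0.234 CPM per kb, AMN at 1.25 ± 0.390 CPM per kb and CUBN at 0.0533 ± 0.0160 CPM per kb. LRP1 and LRPAP1 differed by less than their spread. Among the 16261 protein-coding genes with a count in the control group, 81.1% had a lower level per kb than OCRL, 75.1% than LRP1, 75.0% than LRPAP1, 49.6% than DAB2, 35.1% than AMN and 13.5% than CUBN. The level of LRP1 per kb fell to 3.85 ± 0.339 with cisplatin, below that of DAB2 at 4.60 ± 0.191, and was 21.5 ± 4.17 with vancomycin, the highest of the 7 genes. The length in the table is longer than the principal transcript for each of these genes. With the length of the principal transcript instead, AMN was at 3.04 CPM per kb and LRP1 at 15.5 CPM per kb in the control group, and LRP1 then lay above LRPAP1 at 12.4 CPM per kb and below OCRL at 17.7 CPM per kb.

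**Figure D3:**
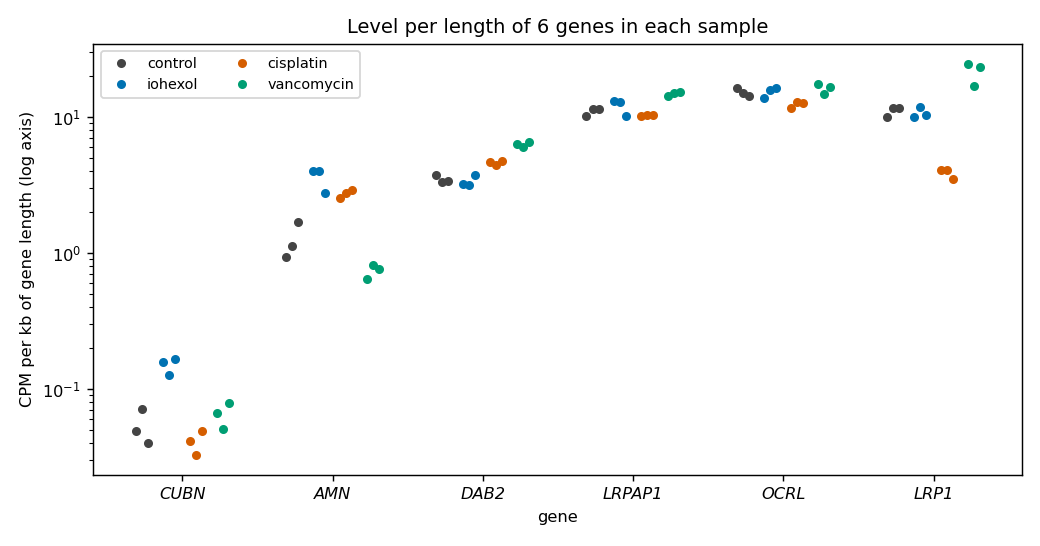
Level per length (y axis, CPM per kb of gene length, log axis) of 6 genes (x axis) in each of the 12 samples, colored by group. CUBN lies between 0.0325 and 0.166 CPM per kb in all samples, more than 10 times below DAB2, LRPAP1, OCRL and LRP1 in every sample. LRP2, which had 0 counts in most samples, is not drawn.

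The genes whose levels were most like those of each member over the 12 samples were named by the highest Pearson's r of log2 CPM among the protein-coding genes tested. The samples form 4 groups, so the points share their group means, and r is given as a description. For LRP1 these were FN1, with r = 0.996 over 12 samples, and CRMP1, with r = 0.994. FN1, which encodes the matrix protein fibronectin, was at 21414 ± 376 CPM in the control group and 22230 ± 1731 CPM with iohexol. Cisplatin samples had 6889 ± 241 CPM and vancomycin samples 47068 ± 7056 CPM. Vancomycin replicate 2, the lowest of its group in LRP1, was also the lowest of its group in FN1, at 39049 CPM against 52329 and 49826 CPM.

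For AMN the likest genes were SLC9A3R1 (r = 0.982 over 12 samples), which encodes the apical scaffold NHERF1, and GPER1 (r = 0.963). SLC9A3R1 was at 36.5 ± 3.89 CPM in the control group and 50.8 ± 3.82 CPM with iohexol. Cisplatin samples had 48.2 ± 1.15 CPM and vancomycin samples 30.3 ± 2.16 CPM. CUBN was most like ACSL1 (r = 0.944) and AKR1B1 (r = 0.940), a gene of the osmolyte sorbitol, which was at 1215 CPM in the control group and 6148 CPM with iohexol. DAB2 was most like ATP6V1B2 (r = 0.980), a subunit of the proton pump of endosomes and lysosomes, and XIRP1 (r = 0.980), a gene with fewer than 3 CPM. The likest genes of LRPAP1 were UBXN6 (r = 0.989) and BBC3 (r = 0.988), and those of OCRL were KDM5A (r = 0.951) and KLHL42 (r = 0.944).

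**Figure D4:**
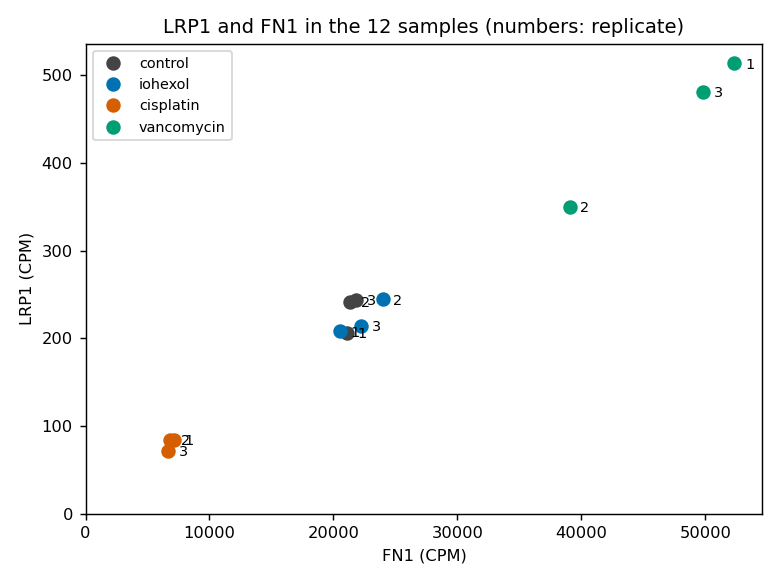
LRP1 (y axis, CPM) against FN1 (x axis, CPM), the gene with the most similar pattern, in the 12 samples, with replicate numbers beside the points. The cisplatin samples lie lowest in both genes, control and iohexol samples lie together, and vancomycin replicate 2 lies below the other vancomycin samples in both.

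The wider uptake route was read through 137 genes in 8 lists: the clathrin coat, scission and uncoating, endosomes and recycling, other receptors of the LDL receptor family, other endocytic receptors, ligands, shedding proteases, and transcription factors. With iohexol 23 of the 123 genes tested were higher and 12 lower in edgeR's quasi-likelihood test. This count rested on single samples, with 21 called in all without control replicate 2 and 23 without iohexol replicate 2. With cisplatin 27 were higher and 55 lower of 123. With library sizes in place of the TMM factors 49 were higher and 40 lower, and the median of all genes moved by this scaling from 0.01 to 0.23. With vancomycin 55 were higher and 39 lower of 124. The share called was 28.5% with iohexol, 66.7% with cisplatin and 75.8% with vancomycin, where 21.0%, 59.8% and 57.9% of all genes were called. DEGs were fewer, 7 of 123, 18 of 123 and 20 of 124, where 5.28%, 16.3% and 18.5% of all genes were DEGs. In the same order, 11.2%, 29.2% and 29.0% of all genes were higher and 9.77%, 30.6% and 28.8% lower, and the counts of the lists below are read against these shares.

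The other receptors of the LDL receptor family were lower with cisplatin, as LRP1 was, with 9 of 11 tested lower and 1 higher (median log2 fold change -0.50, against 0.01 over all genes, of which 30.6% were lower). With library sizes 7 were lower and 2 higher. Long genes as a class were also lower with cisplatin, 968 of 1648 genes of at least 10000 bases, with a median of -0.35. The part of gene length in the shift of this list was not tested. LRP8, the reelin receptor ApoER2, was at 75.7 ± 3.56 CPM in the control group and 24.2 ± 1.83 CPM with cisplatin, a log2 fold change of -1.65. VLDLR, its closest relative, was at 78.6 ± 9.84 CPM and 30.9 ± 2.71 CPM, a change of -1.35. SORL1, a sorting receptor, was lower by a log2 fold change of -2.77. With vancomycin 7 of the 12 tested were higher and 2 lower, with a median of 0.28, where 29.0% of all genes were higher and 28.8% lower. LRP8 was then at 118 ± 3.01 CPM, a log2 fold change of 0.60, SORL1 was lower (log2 fold change -0.47) and VLDLR was not called (log2 fold change -0.06). LRP1B, a close relative of LRP1, was read weakly, with 6 to 12 counts in the control samples and 22 to 40 with vancomycin (log2 fold change 1.68). It passed the filter in this comparison through the vancomycin samples, where its level was highest. Its change is therefore given as a description, although it is counted among the 7 higher. With iohexol 1 of 12 was higher, SORL1 (log2 fold change 0.54), and 2 lower, LRP8 among them (log2 fold change -0.43).

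Of the other endocytic receptors, 7 of 10 tested were higher with vancomycin and 1 lower, where 29.0% of all genes were higher and 28.8% lower. FCGRT, the receptor that recycles albumin and antibodies, was at 23.5 ± 3.10 CPM in the control group and 51.8 ± 4.13 CPM with vancomycin (log2 fold change 1.10), and the lower gene was SORT1, the sorting receptor sortilin (log2 fold change -1.84). With cisplatin 5 of 10 were lower, SORT1 among them (log2 fold change -0.87), and 2 higher, with 30.6% and 29.2% of all genes. With iohexol 3 of 10 were higher, FCGRT among them (log2 fold change 0.45), and 0 lower by edgeR, DESeq2 or limma-voom, with 1 lower at an unadjusted p under 0.05. Of all genes 11.2% were higher and 9.77% lower with iohexol. SORT1 had a log2 fold change of 0.23 with iohexol and was not called (adjusted p = 0.0619 by edgeR).

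Changes of the coat genes were mostly under 2-fold. Of 24 genes of the clathrin coat and its adaptors, 3 were lower and 2 higher with iohexol, 10 lower and 4 higher with cisplatin, and 11 lower and 3 higher with vancomycin, with medians of -0.07, -0.06 and -0.08. The shares called, 20.8%, 58.3% and 58.3%, were near those of all genes (21.0%, 59.8% and 57.9%). With library sizes the split with cisplatin was 6 lower and 11 higher. The only gene of this list that was a DEG with any of the 3 drugs was CLTB, a clathrin light chain, at 23.4 ± 3.71 CPM in the control group, 67.7 ± 1.82 CPM with cisplatin and 53.4 ± 6.33 CPM with vancomycin, with log2 fold changes of 1.52 and 1.14. Of 16 tested genes of scission and uncoating, 8 were higher and 6 lower with vancomycin, 3 higher and 6 lower with cisplatin, and 3 higher and 1 lower with iohexol. The share called was 87.5% with vancomycin, 56.3% with cisplatin and 25.0% with iohexol, against 57.9%, 59.8% and 21.0% of all genes. DNM2, the dynamin that cuts coated vesicles free, was at 394 ± 26.5 CPM in the control group and 166 ± 3.78 CPM with cisplatin (log2 fold change -1.25). DNAJC6, the uncoating factor auxilin, was lower with vancomycin (log2 fold change -2.05).

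Of 29 genes of endosomes and recycling, 5 were higher and 1 lower with iohexol, 8 higher and 9 lower with cisplatin, and 8 higher and 12 lower with vancomycin. The shares called, 20.7%, 58.6% and 68.97%, compare with 21.0%, 59.8% and 57.9% of all genes. With library sizes the split with cisplatin was 15 higher and 4 lower. RAB11FIP1, an effector of recycling endosomes, was lower with vancomycin (log2 fold change -1.68) and higher with cisplatin (0.31), and EHD3 was lower with cisplatin (-1.27) and higher with iohexol (0.57).

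Genes of ligands that megalin, cubilin or LRP1 are known to bind included 7 higher and 4 lower of 14 tested with iohexol, where 21.0% of all genes were called. With vancomycin 11 of 15 were higher and 4 lower, where 29.0% of all genes were higher and 28.8% lower. TCN2, the plasma carrier of vitamin B12 that megalin takes up, was at 3.09 ± 0.482 CPM in the control group and 11.9 ± 2.02 CPM with iohexol. Cisplatin samples had 2.50 ± 0.563 CPM and vancomycin samples 23.9 ± 2.27 CPM. LCN2, the injury marker NGAL, was at 2.44 ± 0.408 CPM, 9.33 ± 1.52 CPM, 2.72 ± 0.458 CPM and 24.6 ± 2.37 CPM in the same order. The samples of both genes with iohexol and with vancomycin lay above all controls, and those with cisplatin overlapped them. APOE, a ligand of LRP1, was higher with all 3 drugs (log2 fold changes 1.00, 0.59 and 3.74), and THBS1, which LRP1 clears, was lower with all 3 (-1.41, -1.27 and -4.54). With cisplatin 7 of 15 ligand genes were higher and 4 lower, where 29.2% of all genes were higher and 30.6% lower.

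The proteases that shed these receptors and the gamma-secretase subunits were lower with cisplatin in 7 of 9 cases and higher in 1, where 30.6% of all genes were lower and 29.2% higher. With library sizes 4 were lower and 2 higher. ADAM10, the main sheddase among them, had a log2 fold change of -1.20. With vancomycin 6 of 9 were higher and 1 lower, against 29.0% and 28.8% of all genes, with PSENEN, a subunit of gamma-secretase, at a log2 fold change of 1.34 and ADAM10 at -0.93. With iohexol 0 of 9 were called by edgeR, by DESeq2 or by limma-voom, and the number at an unadjusted p under 0.05 was 1.

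Transcription factors of the tubule moved apart from each other. With cisplatin 5 of 9 tested were lower, all of them DEGs, and 1 higher, where 30.6% of all genes were lower, 29.2% higher and 16.3% DEGs. PAX8, a factor of kidney epithelium, was at 372 ± 42.2 CPM in the control group and 617 ± 80.3 CPM with iohexol. Cisplatin samples had 131 ± 1.51 CPM and vancomycin samples 407 ± 35.6 CPM. PPARA, a lipid-sensing factor, was lower with cisplatin (log2 fold change -1.46). PAX2 counts were 14 to 28 in controls, and iohexol samples had 54 to 85. Under cisplatin they were 3 to 8 and under vancomycin 0 to 1. In these 2 comparisons PAX2 passed the filter through the control samples, where its level was the higher of the 2 groups. Its changes there are therefore given as a description, although it is counted among the lower genes and DEGs. With vancomycin 5 of 9 were higher and 2 lower (29.0% and 28.8% of all genes), and with iohexol 2 were higher and 1 lower (11.2% and 9.77%).

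**Figure D5:**
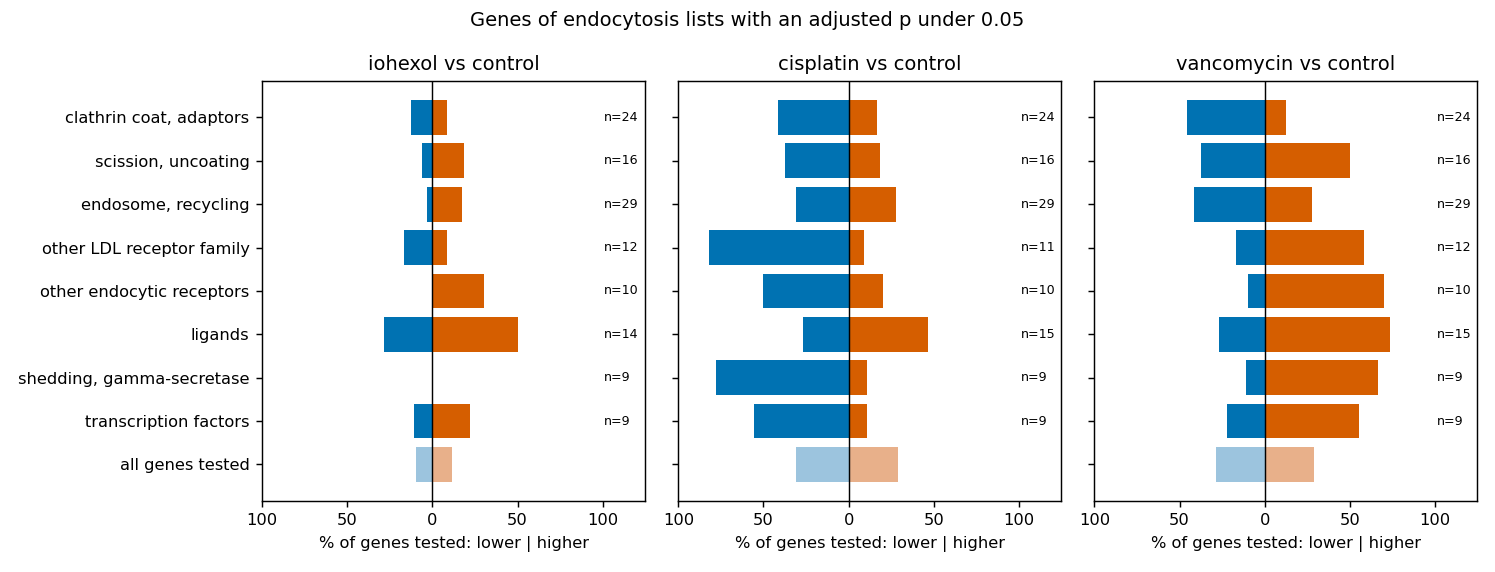
Percent of the genes tested in each of 8 endocytosis lists (y axis, number tested at the right) that were lower (left of 0, blue) or higher (right of 0, orange) at an adjusted p under 0.05 with each drug, with all genes tested in the lowest, paler row. With cisplatin 9 of 11 other LDL receptor family genes were lower, and with vancomycin 7 of 12 were higher. These 7 include LRP1B, which passed the filter through the vancomycin samples. The lower transcription factors with cisplatin and vancomycin include PAX2, which passed it through the control samples.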

How the data were processed

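RNA of HK-2 cells was captured with poly-T beads and made into libraries with the NEBNext Ultra kit. The authors deposited raw counts per gene for 58735 genes. The submitters' notes name fastp, HISAT2 2.0.5, featureCounts 1.5.0-p3 and DESeq2 1.20.0. The build and the strand setting were not given in the sources used here; all 58735 positions match GENCODE release 29 (GRCh38). Counts were tested with edgeR 4.0.16 in R 4.3.3 (quasi-likelihood test, TMM, filterByExpr with 10 counts per sample and 15 in all, Benjamini-Hochberg adjustment), each drug against the control group in a fit of its 6 samples, and drugs against each other in a fit of 12. The 3 comparisons with control share its samples. A gene was called at an adjusted p under 0.05 and a DEG also past 2-fold. Named were all members, at most 4 DEGs of largest change per pathway list, the 2 genes most like each member, and overlapping genes. Members and lists were chosen with earlier results of these data known. Alternatives were DESeq2 1.42.0, limma-voom (limma 3.58.1), other scalings and filters, a replicate block and leaving out samples. The code was tested on simulated data. A gene that the rule names is not reported here.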

Additional observations from a re-analysis of the deposited data

How the results depend on the processing

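Of 35 log2 fold changes of the members, 19 kept their direction and their side of the threshold under the alternatives that gave a value. That count leaves aside a 2-fold rule. With the rule added to the main fit alone, and not to each alternative, the count was 13. Both counts include CUBN with iohexol against control, which passed the filter through the iohexol samples. Of the called changes among these 13, LRP1 between vancomycin and iohexol was not past 2-fold in 10 of 20 alternatives. AMN with cisplatin against control was not past it in 1 of 14. CUBN gave no value where 10 counts were needed in every sample. Under that filter 1 member was called with iohexol, since CUBN was then not tested. Requiring a 2-fold change as well left 2 members with cisplatin, 0 with vancomycin and 2 between cisplatin and iohexol. It left 3 between vancomycin and iohexol and 2 between vancomycin and cisplatin. Of the pathway genes, 7, 18 and 20 were left with iohexol, cisplatin and vancomycin, where 5.28%, 16.3% and 18.5% of all genes were DEGs. With library sizes in place of TMM factors, 3 members were called between cisplatin and iohexol and 2 between vancomycin and cisplatin. In the same order 9593 and 11768 of the 17073 genes tested were called. Under that scaling the sign turned for DAB2 (0.0395) and LRP1 (0.0377) with iohexol, LRPAP1 with cisplatin (0.11), and OCRL with vancomycin against control (-0.0066) and against iohexol (-0.12), and the cause was not tested.

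Leaving out 1 sample at a time gave 2 to 3 members called for iohexol against control, 4 to 5 for cisplatin and 3 to 4 for vancomycin. The 2 to 3 for iohexol include CUBN each time. Its entry rested on the iohexol samples, so these counts are no support for its change. Between cisplatin and iohexol 3 to 6 were called, between vancomycin and iohexol 5 to 5 and between vancomycin and cisplatin 5 to 5. Of the pathway genes, 21 to 39 were called for iohexol and 73 to 89 for cisplatin, and for vancomycin 81 to 91. With iohexol the log2 fold changes of DAB2 (-0.108 to 0.0228), OCRL (-0.023 to 0.105) and LRP1 (-0.116 to 0.00863) crossed 0, none of them called. Replicate numbers were not shown to pair samples (correlations of same-numbered deviations -0.18 to 0.10). With the replicate block 2, 4 and 4 members were called with iohexol, cisplatin and vancomycin, and 25, 87 and 95 pathway genes. CUBN is again among the 2 with iohexol. In the same order 2096, 9769 and 9679 of all genes tested were called. Between drugs the replicate block gave 4, 5 and 5 members, where 8871, 9296 and 10808 of the 17073 genes tested were called. LRPAP1 was not called between cisplatin and iohexol (-0.22, adjusted p = 0.0705 by edgeR). Over all genes the replicate block lowered the calls with iohexol against control from 3283 to 2096. Depth limits LRP2 and CUBN, which had at most 3 and 33 counts.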
